A study of Mus musculus with 12 samples.

Results

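The insulin-like growth factor (IGF) axis was followed through 10 genes in mouse kidney: the ligand Igf1, the binding protein genes Igfbp1 to Igfbp6, the receptors Igf1r and Igf2r, and the adaptor Irs2. They were taken by gene name from a table of 43346 genes, and all 10 names matched 1 row each. Messenger RNA of kidney had been sequenced in 12 libraries, 6 from mice at day 1 after HP-AKI (HP-AKI 7, 8, 9, 11, 12 and 13) and 6 from mice at day 1 after sham treatment (Sham 1 to 6). AKI is acute kidney injury, and HP-AKI is in this field the name for heme protein-induced injury, in which myoglobin or hemoglobin floods the kidney; the letters are not spelled out in the labels. Strain, sex, age, genotype and the agent and dose that caused the injury are not given in the sources used here, and no label says what was done to the sham mice. No label states that each library is a separate animal. The p-values therefore reflect spread among libraries, and that spread may be technical.

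IGF1 is a growth factor made by the liver as a hormone and by many tissues, kidney included, for local use. It acts through the receptor tyrosine kinase IGF1R, which phosphorylates adaptors such as IRS2 and so switches on PI3K and AKT, and AKT in turn keeps FOXO transcription factors out of the nucleus. Most IGF in blood and tissue is held by IGF binding proteins, which prolong its life, carry it or keep it from the receptor, and which proteases such as PAPP-A cut to set it free.

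Counts in genes summed to between 31624522 and 40630917 per HP-AKI library and between 35201197 and 41951129 per Sham library. Levels are given as CPM, each count relative to its library's TMM-scaled total, and levels of different genes are compared as CPM per kilobase of the listed gene length. Of 17470 genes that passed the filter on low counts, 72.8% differed between HP-AKI and Sham, by edgeR's quasi-likelihood test with a Benjamini-Hochberg adjusted p under 0.05, 37.7% higher and 35.2% lower in HP-AKI. The groups did not overlap for 52.4% of tested genes, 26.7% higher and 25.8% lower. The first principal component of log2 CPM held 81.3% of the variance and separated the groups, and on the second HP-AKI 8, Sham 2 and Sham 1 lay at 1 end. Counts of calls are therefore set against a background in which most genes differed.

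In HP-AKI kidney 7 of the 10 genes fell, 2 rose and 1 did not pass the test. Over all tested genes 35.2% fell and 37.7% rose. Igf1, Igfbp1, Igfbp4 and Igfbp5 were 3.84, 3.99, 3.98 and 3.79 times lower in HP-AKI, Igfbp2 was 2.8 times lower, and the receptor genes Igf1r and Igf2r were 1.37 and 1.29 times lower. Igfbp3 and Irs2 rose, 1.57-fold and 3.01-fold. Changes of at least 2-fold were seen in 6 of the 10, and in 33.1% of all tested genes. All 10 genes passed the filter on low counts, and Igfbp2 and Igfbp6 did so with few counts. In 8 of the 10 the 6 HP-AKI values lay wholly beyond the 6 Sham values, 2 above and 6 below. Over all tested genes this held for 52.4%, 26.7% above and 25.8% below. Igf1r counted among the 6 by a narrow gap, 67.16 CPM in HP-AKI 13 against 67.19 CPM in Sham 5. The median log2 fold change was -0.97 over the 10 genes and 0.04 over all tested genes, whose quartiles were -0.67 and 0.67. Since bulk kidney RNA was sequenced, fewer cells of a type and less RNA per cell cannot be told apart in any of these values.

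**Figure D1:**
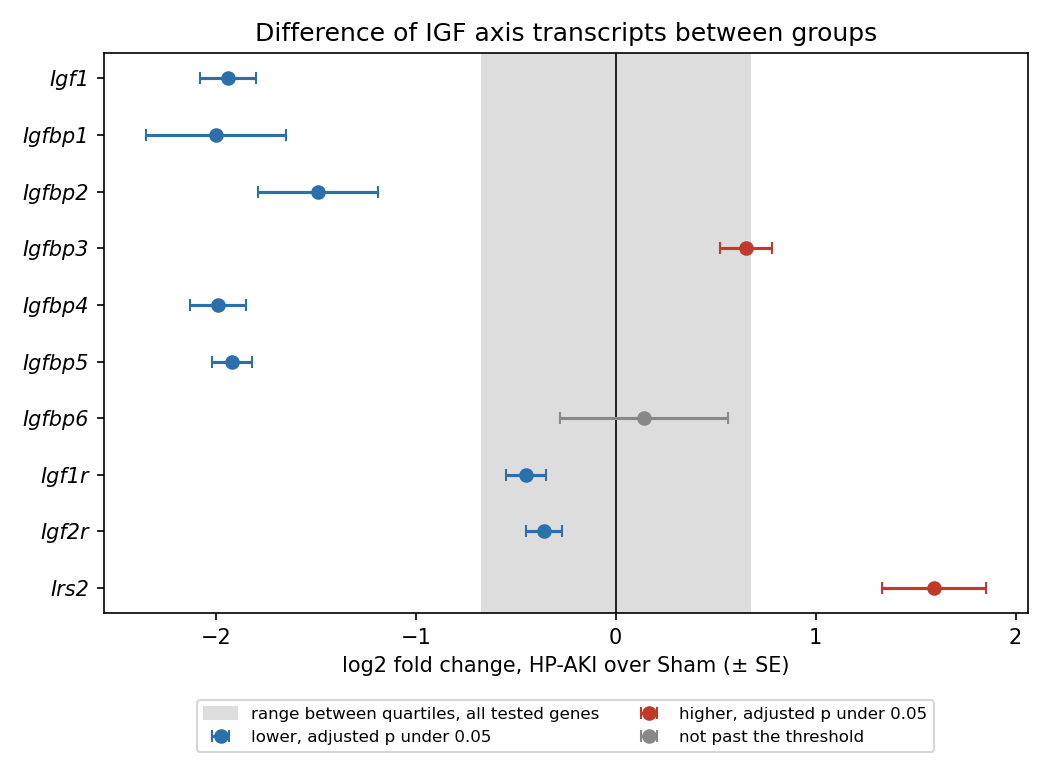
Log2 fold change of each gene, HP-AKI over Sham, with its SE (horizontal axis), with the range between the quartiles of all tested genes as a grey band from -0.67 to 0.67. Igf1, Igfbp1, Igfbp2, Igfbp4 and Igfbp5 lie left of the band, Irs2 right of it, and Igfbp3, Igfbp6, Igf1r and Igf2r within it.

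Igf1 (ENSMUSG00000020053, GRCm38 chromosome 10, 87858265 to 87937042, plus strand) encodes the ligand. Its lowest, median and highest values were 5.40, 7.70 and 8.70 CPM in HP-AKI, against 21.6, 27.9 and 37.4 CPM in Sham. The highest HP-AKI value, in HP-AKI 9, was less than the lowest Sham value, in Sham 5. The mean was 7.42 ± 1.18 CPM in HP-AKI and 28.5 ± 5.21 CPM in Sham (SD, n = 6 each), a log2 fold change of -1.94 ± 0.14 (SE) with an adjusted p of 7.55e-09 (edgeR). In counts this rested on 191 to 355 per HP-AKI library and 804 to 1234 per Sham library. An antisense gene, Igf1os, lies within Igf1 but shares no exon base with it.

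Igfbp5 (ENSMUSG00000026185, chromosome 1, 72857932 to 72874884, minus strand) encodes a binding protein that also attaches to extracellular matrix. Per kilobase it was the most abundant of the 10 in Sham. The values ran from 194 through a median of 257 to 285 CPM in HP-AKI, against 844, 936 and 991 CPM in Sham. No library came near the other group, and HP-AKI 13 and HP-AKI 8 were the lowest. Igfbp5 had a log2 fold change of -1.92 ± 0.10 (SE) with an adjusted p of 3.29e-10, the smallest of the 10 genes.

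Igfbp4 (ENSMUSG00000017493, chromosome 11, 99041244 to 99054392, plus strand) encodes a binding protein known mainly as an inhibitor of IGF action. Its values were 75.2, 96.9 and 132 CPM (lowest, median, highest) in HP-AKI and 331, 423 and 449 CPM in Sham. HP-AKI 12 and HP-AKI 13 stood highest in their group at 130.1 and 132 CPM, still far below the lowest Sham value, in Sham 2. The log2 fold change was -1.99 ± 0.14 (SE), with an adjusted p of 6.29e-09.

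Igfbp1 (ENSMUSG00000020429, chromosome 11, 7197782 to 7202546, plus strand) encodes a binding protein that in liver is switched off by insulin within hours and is a textbook FOXO target. Its lowest, median and highest values were 0.788, 1.64 and 5.14 CPM in HP-AKI and 7.15, 8.14 and 8.89 CPM in Sham. All HP-AKI values lay below all Sham values, but HP-AKI 12 stood well above the other 5, which reached 2.12 CPM. The Sham libraries were close together, at 8.09 ± 0.573 CPM (SD, n = 6), against 2.03 ± 1.61 CPM (SD, n = 6) in HP-AKI. The log2 fold change was -2.0 ± 0.35 (SE), adjusted p 9.69e-05, and -2.54 without HP-AKI 12. The counts were 27 to 182 per library in HP-AKI and 260 to 335 in Sham.

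Over the 12 libraries, the 3 genes whose centred log2 CPM profile lay closest to that of Igfbp1, among 11189 other protein-coding genes averaging 5 CPM or more, were Cyp4a10, G6pc and 4930481A15Rik. Their root mean square differences from it were 0.363, 0.363 and 0.418 on the log2 scale, a measure to which the group difference contributes. Cyp4a10, a fatty acid hydroxylase, averaged 167 ± 78.9 CPM in HP-AKI and 687 ± 47.9 CPM in Sham (SD, n = 6 each). G6pc, the glucose-6-phosphatase that ends gluconeogenesis, averaged 125 ± 46.9 CPM in HP-AKI and 673 ± 74.8 CPM in Sham. In each of the 3 genes, as in Igfbp1, HP-AKI 12 held the highest and HP-AKI 13 the second highest value of its group, with 212 and 128 CPM of G6pc. The 3 genes were picked for likeness over these same libraries, so a shared order of libraries follows in part from that choice.

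Igfbp1, G6pc and Irs2 are textbook targets of insulin and FOXO signaling. Igfbp1 and G6pc fell here, while Irs2 rose. Their promoters, the 250 bases before the RefSeq start (GRCm38.p6), are shown because each holds 1 match to the insulin response element core, CAAAACA on either strand (TGTTTTG on the other), in capitals. The RefSeq start of Irs2 lies upstream of the end that the deposited table gives for the gene.
Igfbp1 (chr11:7197537-7197786, plus strand): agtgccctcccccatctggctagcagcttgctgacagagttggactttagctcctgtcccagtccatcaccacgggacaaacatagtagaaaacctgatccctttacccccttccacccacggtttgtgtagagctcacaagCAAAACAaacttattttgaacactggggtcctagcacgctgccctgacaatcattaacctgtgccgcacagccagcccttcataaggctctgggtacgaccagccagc
G6pc (chr11:101367466-101367715, plus strand): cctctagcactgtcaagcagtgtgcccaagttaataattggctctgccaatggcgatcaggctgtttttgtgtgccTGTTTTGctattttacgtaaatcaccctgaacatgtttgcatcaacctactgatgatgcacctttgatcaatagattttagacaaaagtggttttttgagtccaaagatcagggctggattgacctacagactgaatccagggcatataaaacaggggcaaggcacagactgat
Irs2 (chr8:11008930-11009179, minus strand): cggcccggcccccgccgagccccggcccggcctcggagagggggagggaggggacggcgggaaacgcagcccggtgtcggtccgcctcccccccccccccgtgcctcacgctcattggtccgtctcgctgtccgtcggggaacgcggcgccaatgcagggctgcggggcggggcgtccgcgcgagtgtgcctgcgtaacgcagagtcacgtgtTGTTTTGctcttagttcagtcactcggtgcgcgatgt
The match lies 108 to 102 bases before the start in Igfbp1, 174 to 168 in G6pc and 37 to 31 in Irs2. Of the 10 genes, all with a promoter in the RefSeq table, Igfbp1 and Irs2 held this core, which was present in 5.56% of the 32851 promoter windows of the same length. The FOXO core GTAAACA (on the other strand TGTTTAC) was in none of the 10 genes' windows and in 3.17% of all windows. Only these exact letters were searched under that name, so their absence does not show that a promoter lacks a FOXO site. The Igf1 window (chr10:87860861-87861110) lies inside the gene as listed from 87858265, so bases before that listed start were not searched for any motif. The hypoxia response element core ACGTG (on the other strand CACGT) was in those of Igfbp2, Irs2 and Igf2r, each time as the palindrome CACGTG that matches on both strands, and in 16.6% of all. Here too only these letters were searched, so their absence does not show that a promoter lacks such an element. For Igfbp2 the window at chr1:72824230-72824479 held this core and that at chr1:72825137-72825386 did not. In Irs2 the hypoxia response element core did not overlap the insulin response element core. The promoters of Igfbp1 and G6pc held 53.2% and 43.2% G and C bases and that of Irs2 72.8%. These are matches of letters, and the motifs were chosen with the values known.

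Igfbp3 (ENSMUSG00000020427, chromosome 11, 7206086 to 7213923, minus strand) encodes the main IGF carrier of blood plasma. It lies 3539 bases from Igfbp1, with the 3′ ends of the 2 genes facing each other, and changed in the opposite direction. Its lowest, median and highest values were 332, 427 and 612 CPM in HP-AKI and 267, 288 and 311 CPM in Sham. HP-AKI 8 and HP-AKI 13 were the highest, and HP-AKI 12 was the lowest of its group and just above Sham 3, the highest Sham library. The log2 fold change was 0.65 ± 0.13 (SE), adjusted p 3.34e-04, and 0.48 without Sham 1, Sham 2 and HP-AKI 8. This size lay inside the quartiles of all tested genes.

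By the same measure Rasa3, Fyn and Frmd4a had the profiles closest to that of Igfbp3, with root mean square differences of 0.106, 0.124 and 0.137. Fyn, a SRC family kinase, averaged 19.5 ± 3.69 CPM in HP-AKI and 13.7 ± 1.08 CPM in Sham (SD, n = 6 each). In all 3, as in Igfbp3, HP-AKI 8 was the highest and HP-AKI 12 the lowest library of the HP-AKI group. These genes too were picked for likeness over the same libraries, so the shared order is no separate finding.

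Igfbp2 (ENSMUSG00000039323, chromosome 1, 72824503 to 72852474, plus strand), a binding protein with an integrin-binding motif, was rare, with 11 to 16 counts per HP-AKI library and 21 to 70 per Sham library. Its values were 0.320, 0.368 and 0.467 CPM (lowest, median, highest) in HP-AKI and 0.636, 0.752 and 1.74 CPM in Sham. Sham 5 and Sham 6, at 1.74 and 1.71 CPM, stood apart from the other 4 Sham libraries, which reached 0.761 CPM. All HP-AKI values lay below all Sham values. This gave a log2 fold change of -1.49 ± 0.30 (SE), adjusted p 3.50e-04. Igfbp2 and Igfbp5 lie 5457 bases apart with their 3′ ends facing, as Igfbp1 and Igfbp3 do, and both fell.

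Igfbp6 (ENSMUSG00000023046, chromosome 15, 102144362 to 102149511, plus strand) encodes a binding protein that prefers IGF2. It had 4 to 21 counts per library in HP-AKI and 3 to 21 in Sham. Values of 0.116, 0.309 and 0.645 CPM (lowest, median, highest) in HP-AKI stood against 0.0913, 0.254 and 0.557 CPM in Sham. The groups overlapped almost fully. The log2 fold change was 0.14 ± 0.42 (SE), adjusted p 0.775, with a 95% interval from -0.76 to 1.03.

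**Figure D2:**
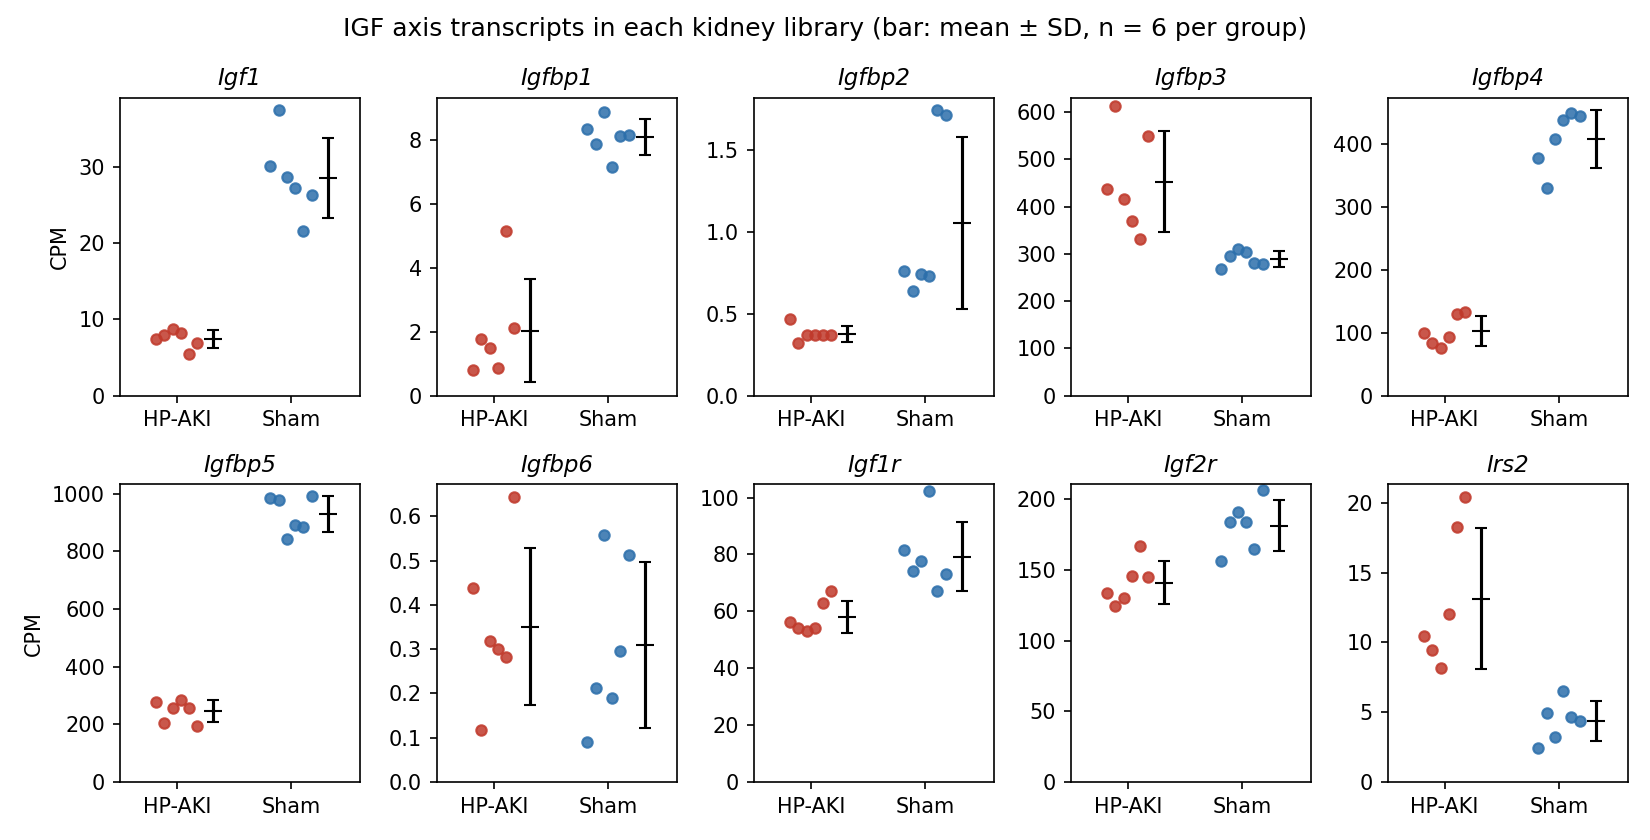
CPM of each of the 10 genes in every library (vertical axis, starting at 0), HP-AKI left in red and Sham right in blue, with the mean and SD of 6 libraries beside the points. The groups overlap in Igfbp6 and Igf2r and lie apart in the other 8 genes, barely so in Igf1r, with HP-AKI above Sham in Igfbp3 and Irs2.

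The make-up of the binding protein transcripts changed with these shifts. The summed level of Igfbp1 to Igfbp6 was 211 ± 28.2 CPM per kilobase in HP-AKI and 346 ± 8.85 in Sham (SD, n = 6 each), without overlap. Igfbp3 made up 67.9% ± 7.12 of it in HP-AKI and 26.7% ± 1.83 in Sham (SD, n = 6 each). Every HP-AKI library, from 58.4% in HP-AKI 12 to 78.3% in HP-AKI 8, lay above every Sham library, of which Sham 3 was highest at 29.3%. Igfbp5 made up 13.5%, 22.1% and 25.3% (lowest, median, highest) in HP-AKI and 41.5%, 44.2% and 48.3% in Sham, and Igfbp4 11.2% ± 3.04 in HP-AKI and 26.7% ± 2.64 in Sham. For both, all HP-AKI shares lay below all Sham shares. Igfbp1 made up 0.659% ± 0.598 in HP-AKI and 1.54% ± 0.127 in Sham, and its share in HP-AKI 12, 1.85%, exceeded every Sham share. Igfbp2 and Igfbp6 each made up at most 0.273%, in Sham 5 for Igfbp2. These shares describe transcripts, carry no test, and assume that the listed length fits the transcripts present.

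**Figure D3:**
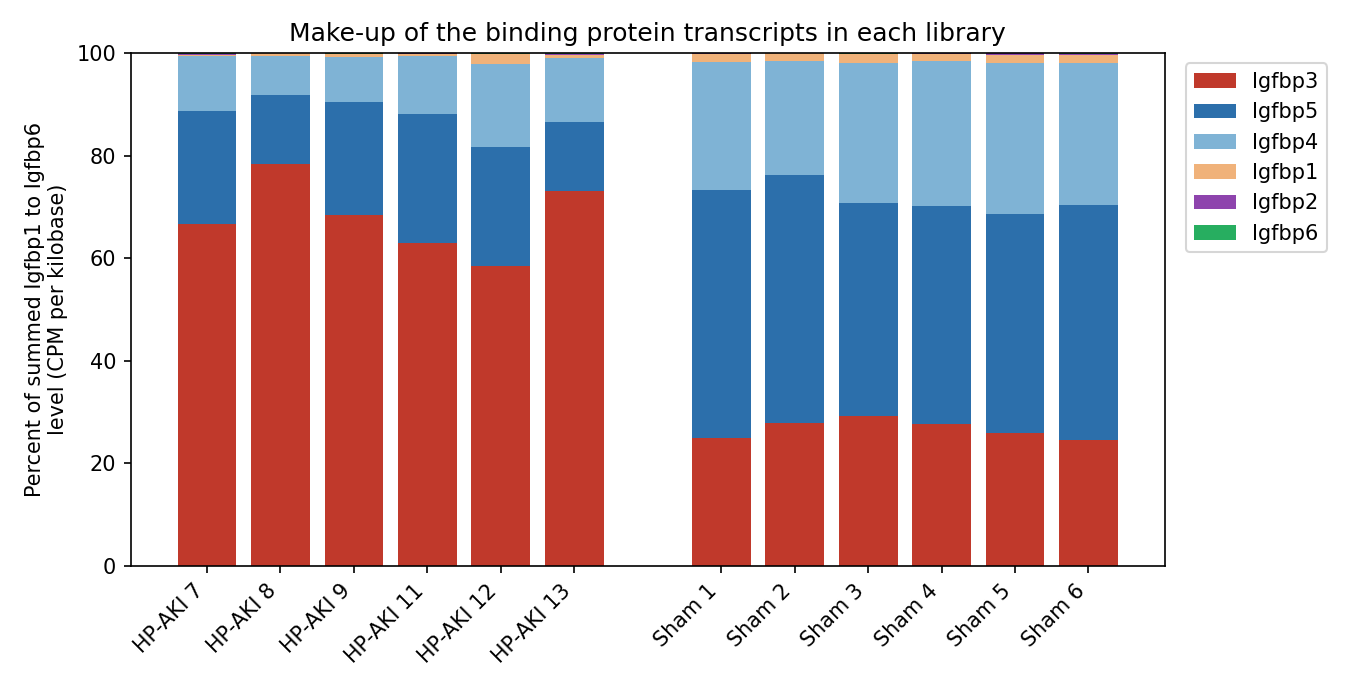
Share of each binding protein gene in the summed CPM per kilobase of Igfbp1 to Igfbp6 (vertical axis, percent), 1 bar per library, HP-AKI left and Sham right. Igfbp3 fills 58.4% to 78.3% of the HP-AKI bars and 24.6% to 29.3% of the Sham bars.

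Igf1r (ENSMUSG00000005533, chromosome 7, 67952859 to 68226780, plus strand) encodes the signaling receptor of IGF1 and IGF2. It had 53.1, 55.2 and 67.2 CPM (lowest, median, highest) in HP-AKI and 67.2, 75.9 and 102 CPM in Sham. The groups met without overlapping, at 67.16 CPM in HP-AKI 13 and 67.19 CPM in Sham 5, and Sham 4 was the highest. For Igf1r this was a log2 fold change of -0.45 ± 0.10 (SE), adjusted p 8.47e-04.

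Igf2r (ENSMUSG00000023830, chromosome 17, 12682406 to 12769664, minus strand) encodes the mannose 6-phosphate receptor, which clears IGF2 from the cell surface and sorts lysosomal enzymes. Values of 124, 140 and 167 CPM (lowest, median, highest) in HP-AKI stood against 157, 184 and 207 CPM in Sham. Here the groups overlapped, since HP-AKI 12 exceeded Sham 1 and Sham 5, and 5 of the 6 HP-AKI values lay below the lowest Sham value. Igf2r had a log2 fold change of -0.36 ± 0.09 (SE), adjusted p 0.00167. The antisense gene Airn overlaps Igf2r without sharing an exon base and held 1073 counts over the HP-AKI libraries and 3457 over the Sham libraries. The library kit does not record strand, so these counts cannot be assigned to the antisense strand.

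Irs2 (ENSMUSG00000038894, chromosome 8, 10986980 to 11008458, minus strand) encodes an adaptor that links the insulin and IGF1 receptors to PI3K. It had 8.14, 11.2 and 20.4 CPM (lowest, median, highest) in HP-AKI, against 2.40, 4.49 and 6.55 CPM in Sham. Every HP-AKI library exceeded every Sham library, and HP-AKI 13 and HP-AKI 12 stood above the other 4. The mean was 13.1 ± 5.04 CPM in HP-AKI and 4.35 ± 1.44 CPM in Sham (SD, n = 6 each), a 3.01-fold difference with a log2 fold change of 1.59 ± 0.26 (SE) and an adjusted p of 5.61e-05. A noncoding gene on the opposite strand, 9530052E02Rik, shares 162 exon bases with Irs2 in the GENCODE vM21 annotation and held 27 counts over HP-AKI and 219 over Sham, where Irs2 held 2851 counts over HP-AKI and 958 over Sham. The TruSeq RNA v2 kit does not record strand, so reads from these shared bases cannot be assigned to either gene by strand.

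Ordered by level per length, the 10 genes stood in HP-AKI as Igfbp3, Igfbp5, Igfbp4, Igf2r, Igf1r, Irs2, Igfbp1, Igf1, Igfbp6 and Igfbp2. In Sham the order was Igfbp5, Igfbp3, Igfbp4, Igf2r, Igf1r, Igfbp1, Igf1, Irs2, Igfbp2 and Igfbp6. The level of Igfbp3 was 145 ± 34.3 CPM per kilobase in HP-AKI and 92.4 ± 5.30 in Sham (SD, n = 6 each). That of Igfbp5 was 40.9 ± 6.33 in HP-AKI and 155 ± 10.6 in Sham, and that of Igf1 0.749 ± 0.119 in HP-AKI and 2.88 ± 0.526 in Sham. Of neighbours in the order, the library ranges lay apart in HP-AKI between Igfbp3 and Igfbp5, Igfbp5 and Igfbp4, and Igf1r and Irs2, and overlapped between all others. In Sham they lay apart between Igfbp5 and Igfbp3, Igfbp4 and Igf2r, Igf1r and Igfbp1, Igfbp1 and Igf1, and Igf1 and Irs2, and overlapped between the rest. Irs2, which lay below Igf1 and Igfbp1 in Sham, lay above both mean levels in HP-AKI. These orders assume that the listed lengths fit the transcripts present. For Irs2 the listed length was 4024 bases, while its exons in GENCODE vM21 cover 6323, which would give a lower level per kilobase.

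**Figure D4:**
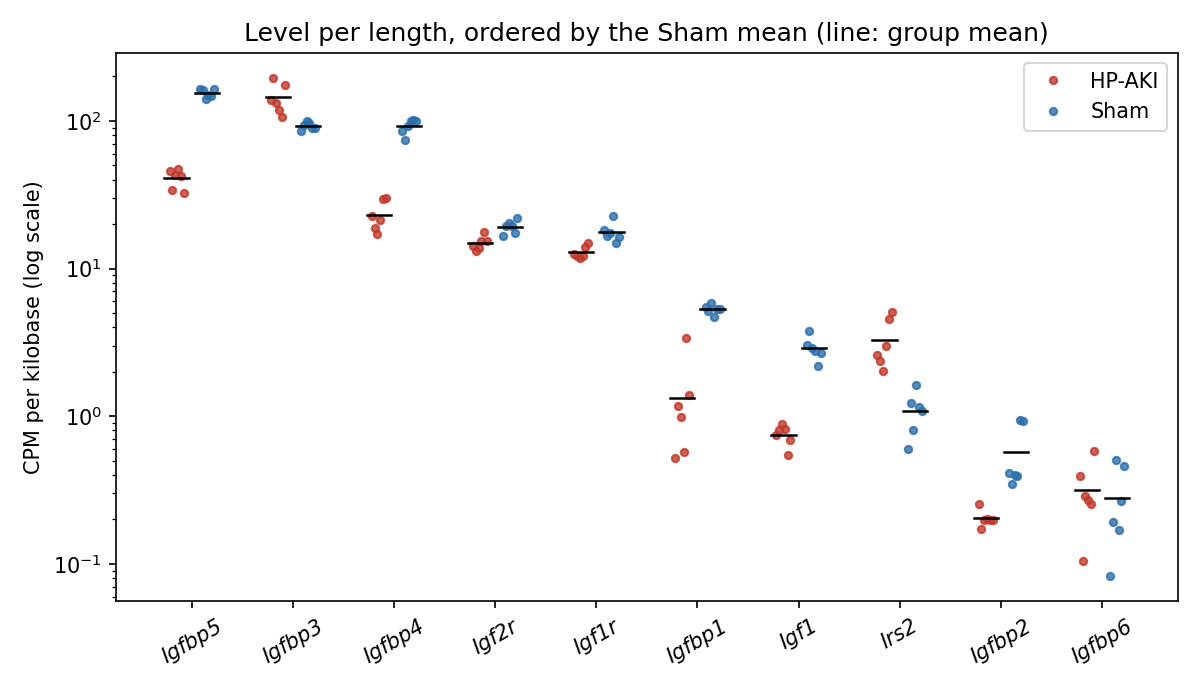
CPM per kilobase of listed gene length for each gene and library (vertical log axis), HP-AKI in red and Sham in blue, genes ordered from left to right by their Sham mean, with group means as lines. Igfbp3, at 145 CPM per kilobase in HP-AKI, takes the first place that Igfbp5 holds in Sham at 155.

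Other genes of the pathway, 68 in 7 lists, were read beside the 10. Of the 62 tested, 18 rose, 25 fell and 19 did not pass, with a median log2 fold change of -0.07. Calls were thus made for 43 of 62, beside 72.8% of all tested genes, 37.7% higher and 35.2% lower. The counts of each list below stand against these same shares.

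Of 8 other ligands, binding proteins and insulin receptor family members, the 5 tested all fell (median -0.81), and Ins1, Ins2 and Igfbpl1 had no count in any library. No insulin transcript was thus detected at this depth. Insrr, an orphan receptor of the insulin receptor family that senses alkaline pH, averaged 3.06 ± 0.870 CPM in HP-AKI and 24.0 ± 3.98 CPM in Sham (SD, n = 6 each), a log2 fold change of -2.97 ± 0.18 (SE). Igfals, which encodes the acid-labile subunit that holds IGF and IGFBP3 in plasma, averaged 0.862 ± 0.429 CPM in HP-AKI and 3.94 ± 1.35 CPM in Sham. The log2 fold change was -0.81 for the ligand Igf2, -0.50 for the insulin receptor Insr, and -0.29 for Igfbp7, a related protein with low affinity for IGFs. Adjusted p-values of the 5 ran from 1.38e-09 for Insrr to 9.29e-04 for Insr.

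Of 5 proteases of binding proteins and their inhibitors, 2 rose, 1 fell and 2 did not pass. Pappa, which encodes PAPP-A, the protease that cuts IGFBP4 and IGFBP5, averaged 26.8 ± 7.80 CPM in HP-AKI and 12.2 ± 2.57 CPM in Sham (SD, n = 6 each), without overlap of the groups (log2 fold change 1.14 ± 0.18, SE, adjusted p 4.41e-05). Stc2, stanniocalcin 2, an inhibitor of PAPP-A, also rose, to 6.60 ± 0.739 CPM in HP-AKI against 3.72 ± 0.587 CPM in Sham. Pappa2 fell (-0.74), and the inhibitor Stc1 (0.22) and the protease Htra1 (0.01) did not pass.

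Of 6 genes of growth hormone input, the signal that drives IGF1 production in liver, 1 rose, 3 fell and 2 did not pass. Ghr, the growth hormone receptor, had 219, 255 and 338 CPM (lowest, median, highest) in HP-AKI and 971, 1100 and 1445 CPM in Sham, a log2 fold change of -2.15 ± 0.12 (SE) with an adjusted p of 6.69e-10. Stat5b, a transcription factor downstream of the receptor, and Cish, a feedback inhibitor, fell, with log2 fold changes of -0.29 and -0.76. With scaling by library size alone Stat5b did not pass (-0.18, edgeR adjusted p 0.138). The related feedback inhibitor Socs2 rose, to 40.8 ± 8.10 CPM in HP-AKI against 17.9 ± 7.37 CPM in Sham (SD, n = 6 each).

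Of 8 tested adaptors, 3 rose, 4 fell and 1 did not pass. Irs1, the closest relative of Irs2, fell to 16.1 ± 1.94 CPM in HP-AKI against 33.9 ± 5.48 CPM in Sham (SD, n = 6 each), without overlap, while Irs2 rose. Irs3 (log2 fold change -1.16), Grb14 (-0.48), an inhibitor of the insulin receptor, and Gab1 (-0.30), a docking protein, also fell. Shc1, which links receptors to RAS, rose by 1.54 ± 0.07 (SE) on the log2 scale, with Grb2 (1.15), its partner, and Grb10 (0.86), an inhibitor of both receptors.

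Of 21 genes of PI3K, AKT and mTOR, 9 rose, 6 fell and 6 did not pass, with a median of 0.04. Among those that rose, Rptor passed in only 8 of 20 alternatives. Among those that fell, Inppl1 passed in 12 of 20 and Phlpp1 in 17 of 20. Eif4ebp1, a brake on translation that mTOR inactivates, rose to 26.2 ± 8.90 CPM in HP-AKI against 3.25 ± 0.856 CPM in Sham (SD, n = 6 each), and Akt1, an AKT kinase, rose to 77.6 ± 20.4 CPM in HP-AKI against 34.8 ± 11.3 CPM in Sham. Mtor fell to 130.0 ± 18.7 CPM in HP-AKI against 242 ± 27.1 CPM in Sham. The log2 fold changes were 3.0, 1.15 and -0.90, with adjusted p-values of 1.81e-08, 3.20e-04 and 1.36e-06.

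Of 15 tested FOXO factors and textbook FOXO targets, 2 rose, 6 fell and 7 did not pass. Pdk4, which shuts off pyruvate oxidation, had 436, 752 and 1431 CPM (lowest, median, highest) in HP-AKI and 21.7, 38.1 and 45.2 CPM in Sham, a log2 fold change of 4.52 ± 0.27 (SE). Txnip, an inhibitor of thioredoxin and glucose uptake, rose by 1.52 on the log2 scale. Trim63, a muscle ubiquitin ligase, fell to 6.08 ± 1.66 CPM in HP-AKI against 47.1 ± 9.74 CPM in Sham (SD, n = 6 each). The gluconeogenic genes G6pc (log2 fold change -2.43) and Pck1 (-1.65), the transcription factor Klf15 (-1.85), and Foxo4 (-0.76) and Foxo1 (-0.48) also fell. Pck1, the gene of the list with the highest mean over all 12 libraries, averaged 515 ± 225 CPM in HP-AKI and 1615 ± 319 CPM in Sham. The listed targets thus moved in both directions, as did tested genes over the whole table. Of the IGF2 mRNA binding proteins, Igf2bp2 rose (log2 fold change 2.05 ± 0.08, SE), and of the other two 1 did not pass and 1 was too rare to test.

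**Figure D5:**
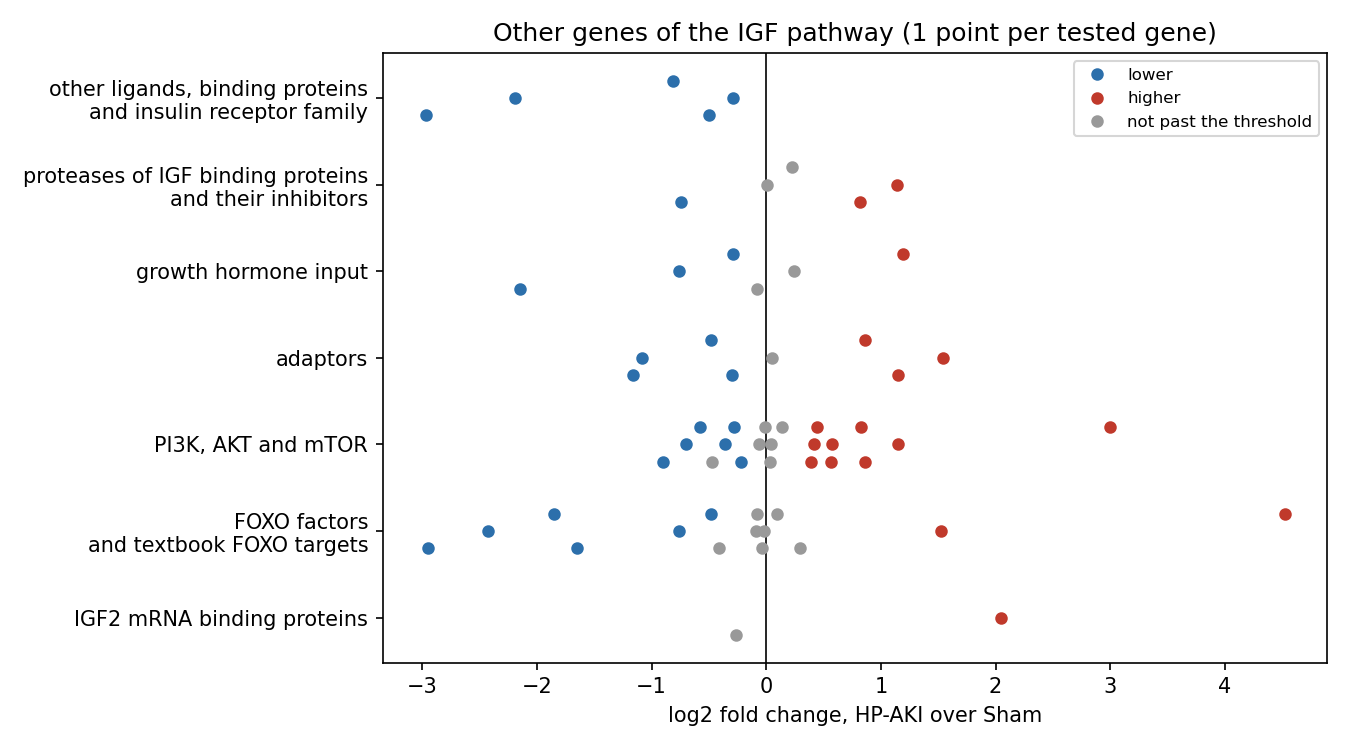
Log2 fold change, HP-AKI over Sham (horizontal axis), of the 62 tested genes in 7 pathway lists, 1 point per gene, red for higher and blue for lower at an adjusted p of 0.05 and grey for not past it. The 5 genes of the first list all lie left of 0, and Pdk4 is farthest right at 4.52.

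Markers of kidney cell types moved between the groups alongside these genes, and their part in the results was not tested. Their counts stand against all tested genes, of which 37.7% were higher and 35.2% lower. All 7 proximal tubule markers fell, with a summed level of 1679 to 2768 CPM in HP-AKI and 9116 to 10750 CPM in Sham. Of 6 markers each, loop of Henle and distal convoluted tubule had 1 higher and 3 lower (4354 to 6628 CPM in HP-AKI, 6536 to 7464 CPM in Sham), and collecting duct had 4 lower (188 to 241 CPM in HP-AKI, 269 to 308 CPM in Sham). The higher gene among the loop and distal tubule markers, Umod, had an edgeR adjusted p of 0.0492 and passed in 7 of 20 alternatives. It made up most of that list's sum, averaging 4947 CPM in HP-AKI and 4151 CPM in Sham. The lower genes of that list were Slc12a1 (log2 fold change -2.86), Slc12a3 (-1.48) and Pvalb (-3.85). Of 5 podocyte markers 4 rose and 1 fell (575 to 803 CPM in HP-AKI, 442 to 595 CPM in Sham). Of 8 endothelial markers 4 rose and 2 fell (684 to 989 CPM in HP-AKI, 621 to 704 CPM in Sham), as did 4 and 2 of 8 fibroblast and pericyte markers (599 to 780 CPM in HP-AKI, 484 to 586 CPM in Sham). Among the 4 fibroblast and pericyte markers that rose, Dcn had an edgeR adjusted p of 0.0477 and passed in 6 of 20 alternatives. Of 8 monocyte and macrophage markers 1 rose and 4 fell (77.4 to 101 CPM in HP-AKI, 82.5 to 117 CPM in Sham). That sum joins opposite changes, since Cd68 rose (log2 fold change 3.54) and Adgre1 (-1.97), Csf1r (-1.01), Cx3cr1 (-2.83) and Ccr2 (-1.23) fell. The 4 tested of 6 neutrophil markers rose (17.5 to 143 CPM in HP-AKI, 1.80 to 3.47 CPM in Sham), while Elane and Mpo, with 2 and 5 counts in all over HP-AKI and 0 and 5 over Sham, were too rare to test, and 5 of 6 tested lymphocyte markers fell (1.27 to 1.72 CPM in HP-AKI, 5.72 to 7.29 CPM in Sham). Of 6 liver markers 2 fell (349 to 955 CPM in HP-AKI, 1298 to 1600 CPM in Sham). Most of that sum was Cyp2e1, which kidney also expresses. The plasma protein genes of the list averaged 24.5 CPM in HP-AKI and 19.9 CPM in Sham for Alb, 10.3 CPM in HP-AKI and 14.4 CPM in Sham for Serpina1a, and 1.77 CPM in HP-AKI and 4.06 CPM in Sham for Apoa2, the other gene of the list that fell. Apoa1 and Ahsg were lowest, at 0.352 and 0.300 CPM in HP-AKI and 0.565 and 0.474 CPM in Sham. Of 4 fat markers 2 rose (3.0 to 13.5 CPM in HP-AKI, 0.0909 to 9.32 CPM in Sham), the 1 tested adrenal marker of 4, Star, rose (list sum 4.92 to 7.89 CPM in HP-AKI, 1.38 to 2.22 CPM in Sham), and none of 5 red blood cell markers passed (137 to 351 CPM in HP-AKI, 102 to 1000 CPM in Sham). HP-AKI 12, highest of its group for Igfbp1 and lowest for Igfbp3, had the group's highest sums of liver, macrophage, lymphocyte and red blood cell markers, its second highest proximal tubule sum, and its lowest endothelial, podocyte, fibroblast, collecting duct and adrenal sums. HP-AKI 8, highest for Igfbp3, had the highest endothelial, podocyte, neutrophil and adrenal sums and the lowest liver and fat sums of its group.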

How the data were processed

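Per the labels' protocols, RNA came from a Trizol and Qiagen extraction and libraries from the TruSeq RNA v2 kit. GRCm38 is the build in the submitters' processing notes, which also list featureCounts, TopHat2 2.1.0 and edgeR and give no settings. Each sample has a deposited count column of whole, unnormalized numbers and a deposited RPKM column. The authors' RPKM values divide by listed length and by a sample total that works out at 2.97 to 3.47 times the count sum, and served only to recompute shares. The table gives all mitochondrial-genome genes at 0.

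After filterByExpr by group and TMM scaling, edgeR 4.0.16 under R 4.3.3 (with limma 3.58.1) tested the counts, two-sided and without covariates, since the labels give no batch. The SE of a log2 fold change is its size over the square root of F. The steps were tested on simulated data with changes planted in a small part of the genes. Most genes differed in the real data, so the simulation cannot show how the steps perform there. Alternatives were RLE, upper-quartile and library-size-only scaling, no filter, a filter of 1 CPM in 6 samples, DESeq2 1.42.0, limma-voom, each library left out in turn, and Sham 1, Sham 2 and HP-AKI 8 left out together. Profiles were compared on log2 CPM with a prior count of 2.

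The 10 genes, the 7 pathway lists and the 13 marker lists were chosen with earlier results of these data known. All 148 list entries matched, 1 by identifier (Adgre1, under an older symbol). Named were all 10 genes, from each pathway list the 2 called genes with the largest change and the most abundant, and the 3 genes with profiles closest to the member with the largest change and to the most abundant per kilobase. Igf2, Insr, Pappa2, Stc1, Stat5b, Cish, Irs1, Grb2, Grb10, Grb14, Gab1, Igfbpl1, Ins1 and Ins2 spell out small counts, and Txnip, Foxo1, Foxo4, G6pc and Klf15 are further examples chosen after their values were seen, as were the marker genes named singly. Rptor, Inppl1 and Phlpp1 are named because their calls changed between settings. Strand and exon overlaps come from GENCODE vM21 and promoters from RefSeq (GRCm38.p6). Summaries and figures used matplotlib 3.10.9, numpy 2.4.6 and pandas 2.3.3 under Python 3.11.15.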

Additional observations from a re-analysis of the deposited data

Results flagged for a closer look

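Of 20 sets of 6 values (10 genes in 2 groups) 2 held a library far from the other 5, by Dixon's test for a single outlying value at its 95% level, where chance gives about 1 in 20. Igfbp1 in HP-AKI 12 was at 5.14 CPM, against 0.788 to 2.12 CPM in the other HP-AKI libraries, a gap of 0.695 of the range. Without this library the log2 fold change was -2.54 in place of -2.0. Igfbp2 in HP-AKI 7 was at 0.467 CPM, against 0.320 to 0.369 CPM in the other HP-AKI libraries, a gap of 0.669 of the range, on counts of 11 to 16 per library.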

How the results depend on the processing

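All 9 called genes of the 10 were called, with the same sign, in every one of the 20 alternatives that tested them. Under the filter of 1 CPM in 6 samples Igfbp2 and Igfbp6 were not tested, leaving 6 of the 10 lower. Leaving out 1 library at a time gave 2 higher and 7 lower throughout, with 6274 to 6743 genes higher and 6018 to 6435 lower over the whole table, and 17 to 19 other pathway genes higher and 23 to 26 lower. Of the 43 called pathway genes, 39 were called in every alternative that tested them. The others were Rptor, Inppl1, Phlpp1 and Stat5b. With scaling by library size only, the median over all tested genes was 0.16, against 0.04 with TMM, and Stat5b then no longer passed (-0.18, edgeR adjusted p 0.138). Among called markers, besides Umod and Dcn, Ehd3 and Lum passed in 19 of 20 alternatives, Cd4 in 18 of 19 and Lep in 17 of 19. Igfbp6, never past the threshold, had the opposite sign without Sham 1, Sham 2 and HP-AKI 8 together (-0.04) and ran from -0.13 to 0.38 when 1 library was left out. Htra1, also never past it, had the opposite sign with RLE factors (-0.01), upper quartile factors (-0.04), no filter (-0.03), DESeq2 (-0.01) and without those 3 libraries (-0.06), and ran from -0.04 to 0.03 when 1 library was left out. With CPM not divided by length, Igfbp3 made up 55.8% of the binding protein sum in HP-AKI and 17.7% in Sham, Igfbp5 31.0% in HP-AKI and 56.8% in Sham, Igfbp2 0.0473% in HP-AKI and 0.0639% in Sham, Igfbp6 0.0436% in HP-AKI and 0.0189% in Sham, and Igfbp1 0.26% in HP-AKI and 0.495% in Sham, beside 0.659% in HP-AKI and 1.54% in Sham per kilobase. The shares of Igfbp4 moved by less than 1 SD, as did all shares from the RPKM values. No paired analysis was possible because the labels give the groups different sample numbers. The rarest genes, Igfbp2 and Igfbp6, had at most 70 and 21 counts in a library.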
